A study of Mus musculus with 2 samples.

Results

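Endothelial and mural nuclei were the vessel-wall nuclei among the barcodes of 2 single-nucleus RNA libraries from the ventral tegmental area (VTA) of adult mice. The VTA is a midbrain region that holds dopamine and GABA neurons. One library came from mice labelled WT, and the other from mice labelled CCI, with chronic constriction injury of the left sciatic nerve. The injury models neuropathic pain, and the right nerve was laid open and left untied. The labels give neither the number of mice per library, nor their strain, sex or time after surgery, nor the hemisphere, and no operated control without injury is named. They describe an enzymatic digestion of the tissue, while the design speaks of nuclei. Barcodes are called nuclei here. Of 27160 nuclei with at least 500 unique molecular identifiers (UMIs, 1 for each captured RNA molecule), 123 were chosen by their UMIs of marker genes. An endothelial nucleus had at least 2 UMIs and at least 0.2% of its UMIs in the summed counts of Flt1, Cldn5, Pecam1, Slco1a4, Cdh5, Abcb1a and Ly6c1. A mural nucleus met the same limits for Pdgfrb, Kcnj8, Rgs5, Vtn, Abcc9, Atp13a5 and Acta2. Both kinds had less than 1% of UMIs in 6 neuronal genes and less than 0.4% in 6 oligodendrocyte genes. The CCI library gave 42 endothelial nuclei, 42 mural nuclei and 18 that passed both gates. The WT library gave 8, 11 and 2. With 1 library per group there are no replicates, so every interval below covers counting error only and no p-value is given.

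Endothelial cells line the vessel lumen. In the brain they are sealed by tight junctions and carry the transporters and efflux pumps of the blood-brain barrier, through which glucose, amino acids and hormones enter and foreign compounds are sent back. Mural cells, namely pericytes on capillaries and smooth muscle cells on arterioles, sit on the outer side within a shared basement membrane and set vessel tone through calcium and cyclic nucleotides. The types signal to each other: endothelial PDGF-B binds PDGFRB on pericytes, and endothelial Notch ligands bind NOTCH3.

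Promoters of a gene from either type are shown because each gene had UMIs in one type and none in the other. Adgrl4, which encodes an adhesion G protein-coupled receptor of endothelial cells, had 86 UMIs in the endothelial and 0 in the mural nuclei of the CCI library. Abcc9, which encodes the SUR2 subunit of ATP-sensitive potassium channels, had 0 and 115. The sequences run from 250 bases before to 50 bases after the RefSeq start on build GRCm38.p6, at chr3:151437632-151437931 on the plus strand for Adgrl4 and at chr6:142702225-142702524 on the minus strand for Abcc9. Capitals mark the ETS core CCGGAA in Adgrl4, starting at base 226, and the E-box CAGCTG in Abcc9, starting at base 224.
Adgrl4: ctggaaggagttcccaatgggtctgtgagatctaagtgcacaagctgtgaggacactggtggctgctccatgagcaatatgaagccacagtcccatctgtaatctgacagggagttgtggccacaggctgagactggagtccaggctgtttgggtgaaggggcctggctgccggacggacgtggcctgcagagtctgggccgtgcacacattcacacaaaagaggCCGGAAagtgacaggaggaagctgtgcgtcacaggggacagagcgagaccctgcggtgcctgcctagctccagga
Abcc9: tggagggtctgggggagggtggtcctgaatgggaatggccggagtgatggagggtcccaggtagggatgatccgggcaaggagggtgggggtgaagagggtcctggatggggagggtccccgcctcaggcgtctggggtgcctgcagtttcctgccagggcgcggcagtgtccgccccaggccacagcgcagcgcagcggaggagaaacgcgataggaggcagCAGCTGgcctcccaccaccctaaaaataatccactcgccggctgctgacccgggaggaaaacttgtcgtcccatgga
All 6 short motifs were sought on both strands among the 15 leading and 7 gate genes of each type, of which 18 of 22 endothelial and 16 of 22 mural genes matched a RefSeq promoter. A gene counted once if any promoter of it held the motif, while the percentages are over single promoters, so the 2 are not the same measure. CCGGAA stood in promoters of 3 of the 18 endothelial genes (Abcc4, Adgrl4 and Sgms1), of 0 of the 16 mural genes and in 14.9% of all 32851 promoters. The E-box CAGCTG stood in promoters of 3 endothelial and 6 mural genes (Abcc9, Acta2, Lin7a, Pde8b, Plcl1 and Rgs5), and in 16.3% of all promoters. CTTTGAA, a core of TCF and LEF factors, stood in promoters of 3 endothelial and 0 mural genes and in 5.14% of all promoters. ACAATGG, a SOX core, stood in 3 and 0 and in 3.66% of all, and TGTTTAC, a FOX core, stood in 2 and 0 and in 3.65% of all. GTGGGAA, bound by the Notch partner RBPJ, stood in 0 and 2 and in 6.38% of all. A match describes letters in the window and no more.

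Vessel nuclei made up 0.743% of the CCI nuclei (102 of 13736, exact 95% interval 0.606 to 0.901) and 0.156% of the WT nuclei (21 of 13424, 0.0969 to 0.239), a ratio of 4.75 with an interval of 2.95 to 7.997. The endothelial share was 0.306% in CCI and 0.0596% in WT, a ratio of 5.13 (2.38 to 12.7), and the mural share was 0.306% and 0.0819%, a ratio of 3.73 (1.89 to 8.04). Depth moved with the library: the median barcode held 3652 UMIs in CCI and 975 in WT, where 690 of 14114 barcodes lay under 500 UMIs against 0 in CCI. After each nucleus with at least 1000 UMIs was thinned to 1000 before the gate, the endothelial share was 0.269% of 13406 CCI nuclei. It was 0.0438% of 6843 WT nuclei, which is 3 nuclei. The mural share was 0.418% in CCI and 0.0438% in WT, again 3 nuclei. Nuclei under 1000 UMIs were left out, among them all 11 WT mural nuclei and most of the 8 WT endothelial nuclei chosen without thinning. The thinned WT shares are therefore not those of the same nuclei at equal depth. The condition, the library and the depth cannot be told apart here. The libraries shared 54 barcodes, of which 1 belonged to a vessel nucleus. Scrublet, which scores likely doublets, called 9.07% of all WT barcodes and 6.63% of all CCI barcodes. Among vessel nuclei it called 3 of 8 endothelial nuclei of the WT library (37.5%). In the CCI library it called 1 of 42 endothelial (2.38%) and 1 of 18 both-gate nuclei (5.56%). No mural nucleus was called in either library.

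WT members rested on few counts. The 8 WT endothelial nuclei had 2 to 4 endothelial gate UMIs each, and the 11 WT mural nuclei had 2 to 7 mural gate UMIs. In the CCI library the endothelial nuclei had 5, 16.5 and 44 gate UMIs at the lowest, median and highest, and the mural nuclei 3, 14.5 and 51. The least filled CCI member just inside the endothelial limit was a both-gate nucleus with 0.252% of its UMIs in those genes. The lowest of the endothelial class had 0.485%, and the highest nucleus outside with at least 2 UMIs had 0.181%. For the mural limit the least filled member, a mural nucleus, had 0.213% and the highest nucleus outside had 0.195%. Among WT mural nuclei, 3 passed 1% of UMIs in 8 astrocyte genes, and the summed astrocyte level over WT mural nuclei was 9601 CPM (counts per 1e6 UMIs), against 1474 in CCI mural nuclei. The contrast of the types was therefore made in the CCI library, the WT values are given only for direction, and no CCI over WT ratio within a type was computed, since each WT type held fewer than 20 nuclei.

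**Figure D1:**
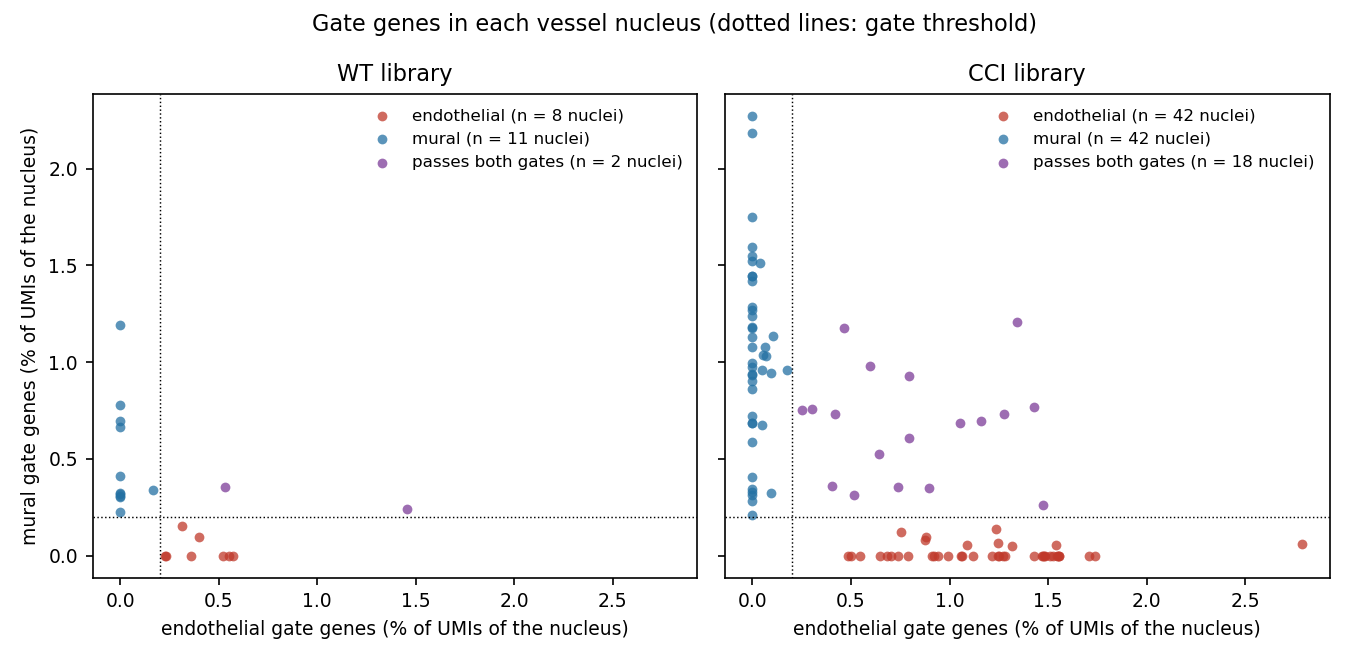
Percent of each nucleus's UMIs in the endothelial gate genes (horizontal) and in the mural gate genes (vertical), 1 point per vessel nucleus, with dotted lines at the 0.2% limits. The 42 endothelial and 42 mural CCI nuclei lie along separate axes, the 18 that pass both gates lie between them. WT mural nuclei reach from 0.225% to 1.19% of UMIs in the mural gate genes.

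The gate genes describe the choice and carry no test. Flt1, a VEGF receptor, had 295 UMIs in endothelial, 9 in mural and 162 in both-gate CCI nuclei. Slco1a4, an organic anion transporter, had 257, 1 and 100, and Abcb1a, the P-glycoprotein efflux pump, had 95, 0 and 34. Cldn5, the main claudin of brain tight junctions, had 57, 0 and 57. The adhesion molecules Pecam1 and Cdh5 had 38, 0 and 16 UMIs and 12, 2 and 16, and the surface protein gene Ly6c1 had 20, 0 and 26. Among the mural genes Atp13a5, a P-type ATPase of brain pericytes, gave most UMIs: 0 in endothelial, 337 in mural and 71 in both-gate nuclei. Vtn, which encodes vitronectin, had 0, 116 and 89, Abcc9 had 0, 115 and 42, and Pdgfrb, the PDGF-B receptor, had 0, 80 and 35. The channel pore gene Kcnj8, whose product pairs with SUR2, had 0, 8 and 12. Rgs5, a regulator of G protein signalling, was the mural gate gene with UMIs in endothelial nuclei (13, 45 and 95). Acta2, smooth muscle actin, had 0, 0 and 31, so the mural nuclei of the CCI library were chosen without any UMI of it.

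**Figure D2:**
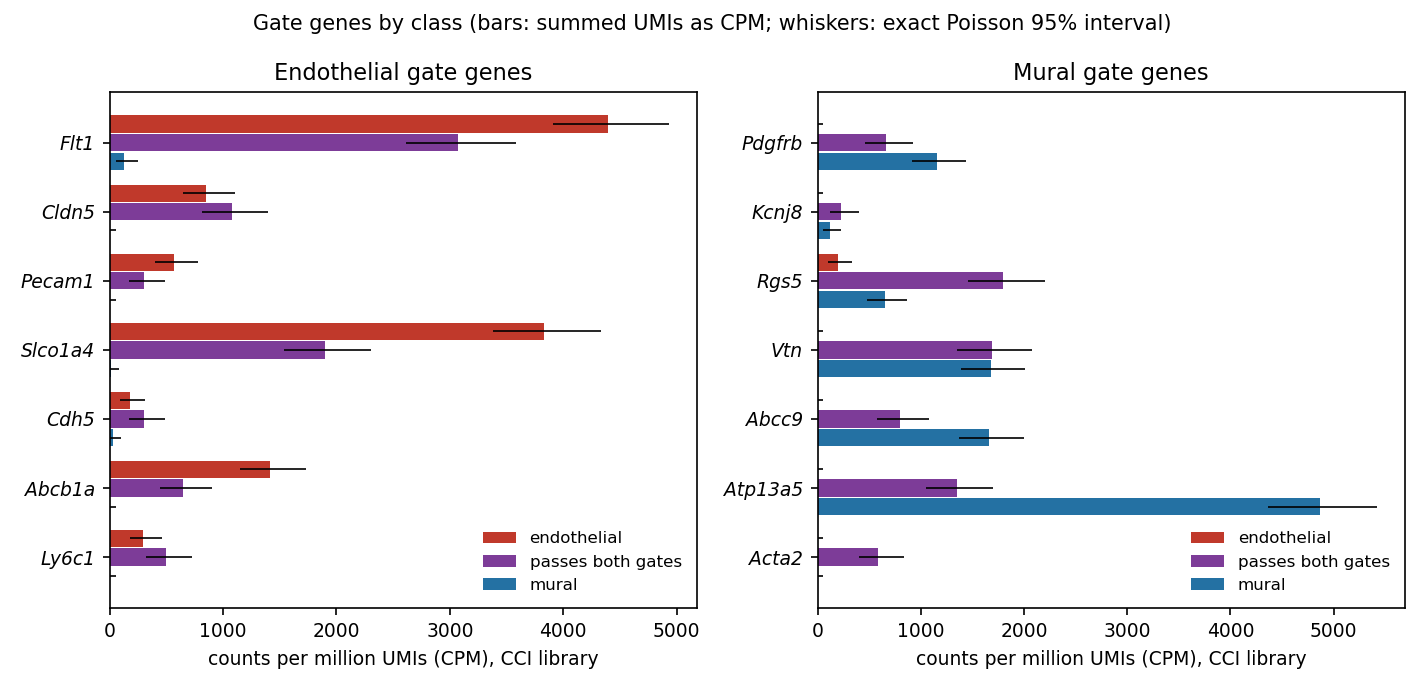
CPM of the 14 gate genes in endothelial, mural and both-gate nuclei of the CCI library, with bars for summed UMIs and whiskers for exact Poisson 95% intervals. Acta2 has a bar in the both-gate nuclei alone, and Rgs5 has one in all 3 classes.

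Markers outside the gate were looked at to check the labels. The 17 further endothelial identity genes summed to 10303 CPM in endothelial, 607 in mural and 7050 in both-gate nuclei of the CCI library. The 23 pericyte genes summed to 1938, 9825 and 5572 CPM, with Ebf1 giving most of the endothelial UMIs. In single nuclei thinned to 1000 UMIs, Mecom was seen in 85.7% of 35 endothelial, 2.78% of 36 mural and 0.233% of 13317 remaining nuclei, and Slc6a20a in 0%, 72.2% and 0.743%. Unthinned, these were 83.3%, 2.38% and 0.653% for Mecom and 2.38%, 76.2% and 1.99% for Slc6a20a, at median depths of 1483, 1501 and 3675 UMIs. Other cell types were present at the edges: 4 of 42 endothelial and 8 of 42 mural nuclei passed a limit for fibroblast, microglial, perivascular macrophage or astrocyte genes. Of those 8 mural nuclei, 5 passed for fibroblast genes, and they held 0 of the 337 Atp13a5 UMIs and 2 of the 115 Abcc9 UMIs but 29 of the 126 Slc6a20a UMIs. With all nuclei that passed such a limit left out, the 15 leading genes of each type all stayed at least 2-fold apart in the same direction. Neuronal gate genes summed to 4324 CPM in endothelial and 4624 in mural nuclei, and their part in the ratios was not tested.

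Of 424 genes with at least 50 UMIs over the endothelial and mural CCI nuclei, 77 (18.2%) were at least 2-fold higher in endothelial and 94 (22.2%) at least 2-fold higher in mural nuclei, together 40.3%, and the median log2 ratio of endothelial over mural was 0.03. The 15 leading genes of each type below were taken from these by the interval bound nearest to 0, so their size describes the choice. In the WT library 14 of the 15 endothelial genes pointed the same way and Hmcn1 had no UMI. Of the 15 mural genes, 14 did so too, and Tbx3os1 had 1 UMI in each type. Several of these WT directions rested on a difference of 1 UMI. Slc7a5 and Sorbs2 had 1 and 0 UMIs in endothelial and mural nuclei, Notch3 had 0 and 1, and Colec12 and Egflam had 1 and 2. The WT directions are therefore weak evidence.

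Atp10a, Mecom and Adgrl4 ranked highest in endothelial nuclei. Atp10a, a lipid-translocating ATPase, had 139 UMIs in endothelial and 0 in mural nuclei, a CPM of 2073 against at most 43.3 for 3 counts, hence at least 47.8-fold higher. Mecom, a zinc finger transcription factor, had 161 and 1 UMIs, a log2 ratio of 7.38 (95% interval 4.88 to 12.69). Adgrl4 was at least 29.6-fold higher, Hmcn1, an extracellular matrix protein, at least 28.6-fold (83 and 0 UMIs), and Ptprb, the vascular endothelial phosphatase, at least 28.2-fold (82 and 0). These genes had no UMI in mural nuclei, except for Mecom with 1. Cyyr1 had 61 and 0 UMIs, and Sema3c, a secreted guidance protein, had 60 and 0, with 20 of its UMIs in 1 nucleus. Sgms1, a sphingomyelin synthase, had 177 and 14 UMIs, a log2 ratio of 3.71 (2.92 to 4.61). Nebl and Sorbs2, which encode actin-binding proteins, had 117 and 7 and 91 and 5 UMIs. Nebl and Sorbs2 were also counted outside the vessel nuclei, at 415 and 364 CPM, so their endothelial levels of 1745 and 1357 CPM were higher by a smaller factor than that of Mecom, which stood at 2.36 CPM outside.

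Slc6a20a, Pde8b and Dlc1 were among the leading mural genes. Slc6a20a, an imino acid transporter, had 1 UMI in endothelial and 126 in mural nuclei, a log2 ratio of -6.93 (-12.25 to -4.43). Pde8b, a phosphodiesterase of cAMP, had 5 and 205 (log2 -5.31), and Dlc1, a GTPase-activating protein, had 18 and 470 (log2 -4.66, -5.43 to -3.98). Dlc1 and Plcl1, a phospholipase C-like protein with 23 and 427 UMIs, gave the most UMIs of the leading mural genes. Slc38a11, of the family of sodium-coupled amino acid transporters, had 0 and 64 UMIs and was at least 20.7-fold higher in mural nuclei. Colec12, a scavenger receptor, had 2 and 94, and Arhgap42, another GTPase-activating protein, had 2 and 82. Egflam, a matrix protein, had 1 and 55 UMIs, Slco3a1, an organic anion transporter, had 1 and 51, and Lin7a, a scaffold protein, had 2 and 52. Grm3, a metabotropic glutamate receptor, had 9 and 136 UMIs. The antisense transcript Tbx3os1 had 1 and 52 UMIs, and its exons overlap Tbx3 on the other strand. Exons of other genes given in this report also overlap a gene on the other strand. Among them are Mecom, Slc2a1, Sgms1, Sorbs2, Hmcn1, Abcb1a, Abcc9, Slc6a20a, Pde8b, Notch3, Egflam, Lama2 and Lef1. Others are Col4a1, Eng, Bmp6, Fn1, Nr2f2, Itpr1, Lamc3, Vcam1, Slc6a6, Notch1, Dll4, Nr3c2 and Angpt1. Since the sources used here do not say whether counting used strand, it is not known whether reads of such pairs were told apart. Exons of Cyyr1, Itga1, Notch2 and Igf2 overlap a gene on the same strand, where strand would not tell reads apart.

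**Figure D3:**
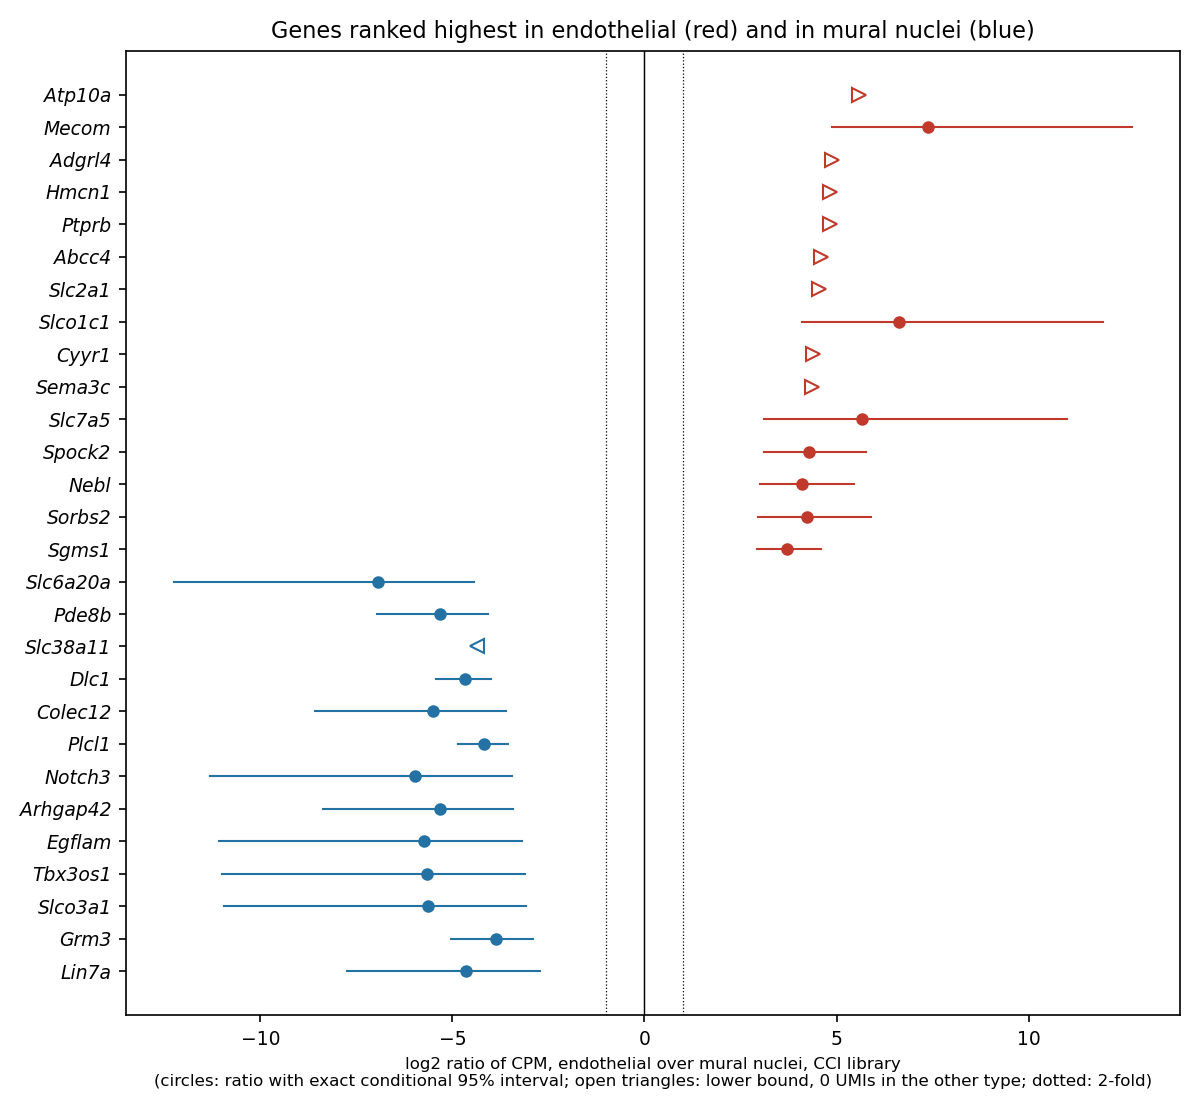
Log2 ratio of CPM in endothelial over mural nuclei of the CCI library for the 15 leading endothelial genes and 13 of the 15 leading mural genes, with circles for ratios and their exact 95% intervals and open triangles for lower bounds where the other type had 0 UMIs. Ratios reach from -6.93 for Slc6a20a to 7.38 for Mecom, and the dotted lines mark 2-fold.

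Transporters of the blood-brain barrier were counted mainly in endothelial nuclei. Of 24 listed genes, 9 had at least 50 UMIs, and all 9 were at least 2-fold higher in endothelial nuclei, beside 18.2% of all 424 genes. Their median log2 ratio was 4.55, beside 0.03 over all genes. The list summed to 12495 CPM in endothelial and 1011 in mural nuclei. Slc2a1, the GLUT1 glucose transporter, had 68 UMIs in endothelial and 0 in mural nuclei and was at least 23.4-fold higher. Slco1c1, which carries thyroid hormone, had 95 and 1 UMIs (log2 6.62), and Slc7a5, the large neutral amino acid transporter, had 49 and 1 (log2 5.66). The efflux pumps Abcc4 and Abcg2 had 70 and 0 UMIs and 75 and 4 UMIs. Slc6a6, the taurine transporter, had 64 and 4, the zinc transporter Slc39a10 had 52 and 3, and Insr, the insulin receptor, had 54 and 20, the smallest of these ratios (log2 1.48, 0.71 to 2.30). Genes of vesicle transport were rarely counted: Cav1 and Cavin2, coat genes of caveolae, had 9 and 6 UMIs in endothelial and 0 in mural nuclei, and none of that list of 10 genes reached 50 UMIs.

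Both junction genes with at least 50 UMIs were called in endothelial nuclei, out of 15 on the list, beside 18.2% of all 424 genes. Tjp1, the scaffold ZO-1, had 121 UMIs in endothelial and 46 in mural nuclei (log2 1.44, 0.94 to 1.96), and Magi1, another junction scaffold, had 46 and 22 (log2 1.11, 0.35 to 1.91). Both were counted elsewhere too, at 377 and 447 CPM in the remaining CCI nuclei. Esam, an adhesion molecule of endothelial junctions, had 19 and 10 UMIs, and 1.69 CPM outside the vessel nuclei.

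Transcription factors of endothelial fate were at least 2-fold higher in endothelial nuclei for 4 of the 5 with at least 50 UMIs, out of 21 listed. The share over all 424 genes was 18.2%. Lef1, which acts with beta-catenin in Wnt signalling, had 88 and 6 UMIs (log2 3.92, 2.74 to 5.40), and Mecom was given above. Epas1, the hypoxia factor HIF-2 alpha, had 60 and 11 UMIs (log2 2.49), and the ETS factor Fli1 had 49 and 6 (log2 3.08). Ets1, of the same family, had 35 and 24, a log2 ratio of 0.59 with an interval of -0.20 to 1.40 that includes 0. Erg, also an ETS factor, had 22 and 0 UMIs. On the mural side Zic1 had 0 and 23 UMIs and Nr2f2, a factor also known from veins, had 1 and 28. Ebf1, a listed pericyte factor, was counted in both types with 124 and 240 UMIs (log2 -0.91, -1.23 to -0.59), against 126 CPM in the remaining nuclei and 1849 and 3468 CPM in the 2 types.

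PDGF ligand genes had more UMIs in endothelial nuclei. Pdgfb and Pdgfd had 18 and 71 UMIs in endothelial and 0 and 5 in mural nuclei. Their receptor gene Pdgfrb chose the mural nuclei, so its 0 and 80 UMIs follow from the gate. Pdgfd was the listed PDGF gene with at least 50 UMIs outside the gate (log2 3.87, 2.58 to 5.54). Of the Notch genes, Notch3, the mural receptor, had 1 and 65 UMIs (log2 -5.98, -11.30 to -3.45), and Notch1 had 7 and 11. Counts of Notch ligands were low: Jag1 had 7 and 5 UMIs and Dll4 had 5 and 0.

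VEGF and angiopoietin receptors were counted in endothelial nuclei, with Tek, the angiopoietin receptor TIE2, at 27 and 1 UMIs and Kdr, VEGF receptor 2, at 13 and 0. Their ligands gave few counts in both types: Vegfa had 4 and 5 UMIs and Angpt1 4 and 6. Of the TGF-beta and BMP genes, Bmpr2, the type II BMP receptor, was called in endothelial nuclei with 38 and 14 UMIs (log2 1.49, 0.57 to 2.48). The co-receptor Eng had 31 and 4, the BMP target Id1 18 and 1, and Tgfb2 18 and 1. Bmp6 had 1 and 39 UMIs, but all 39 lay in the 5 mural nuclei with fibroblast genes, as did all 14 mural UMIs of Vcam1. When nuclei were thinned before the gate, Bmp6 had 9 UMIs in each type.

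Genes of calcium handling and cyclic nucleotides were higher in mural nuclei wherever counts sufficed. All 4 channel genes with at least 50 UMIs, of 20 listed, were at least 2-fold higher there, beside 22.2% of all 424 genes. Cacna1c, the pore of the L-type calcium channel, had 17 and 114 UMIs (log2 -2.70, -3.53 to -1.96) and the IP3 receptors Itpr1 and Itpr2 19 and 58 and 17 and 53. Trpc4 had 3 and 31. Of 20 receptor and cyclic nucleotide genes, all 4 with at least 50 UMIs were called on the mural side: Pde8b, Prkg1, Pde4d and Gucy1a2. Prkg1, the kinase activated by cGMP, had 82 and 239 UMIs (log2 -1.50), Pde4d, a cAMP phosphodiesterase, 43 and 127 (log2 -1.52), and Gucy1a2, a subunit of the nitric oxide receptor guanylate cyclase, 8 and 46 (log2 -2.48). Its partner subunit Gucy1b1 had 2 and 32. Prkg1 and Pde4d were broadly counted, at 875 and 1748 CPM in the remaining nuclei, and the mural level of Pde4d was 1835 CPM.

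Basement membrane and matrix receptor genes were split between the types. Lama2 and Lamc1, chains of laminin, had 9 and 104 and 13 and 61 UMIs (log2 -3.49 and -2.18). Both genes of this list with at least 50 UMIs were thus called on the mural side, beside 22.2% of all 424 genes. Lamc3 had 2 and 33 UMIs. Fn1, fibronectin, had 33 in endothelial and 0 in mural nuclei, and Col4a1, type IV collagen, 18 and 10. Among integrins Itga6, a laminin-binding subunit, had 35 and 1, whereas Itgb5 had 1 and 18. Itga1, a collagen-binding subunit, was in both types with 32 and 57 UMIs and a log2 ratio of -0.79 (-1.46 to -0.14), within 2-fold.

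**Figure D4:**
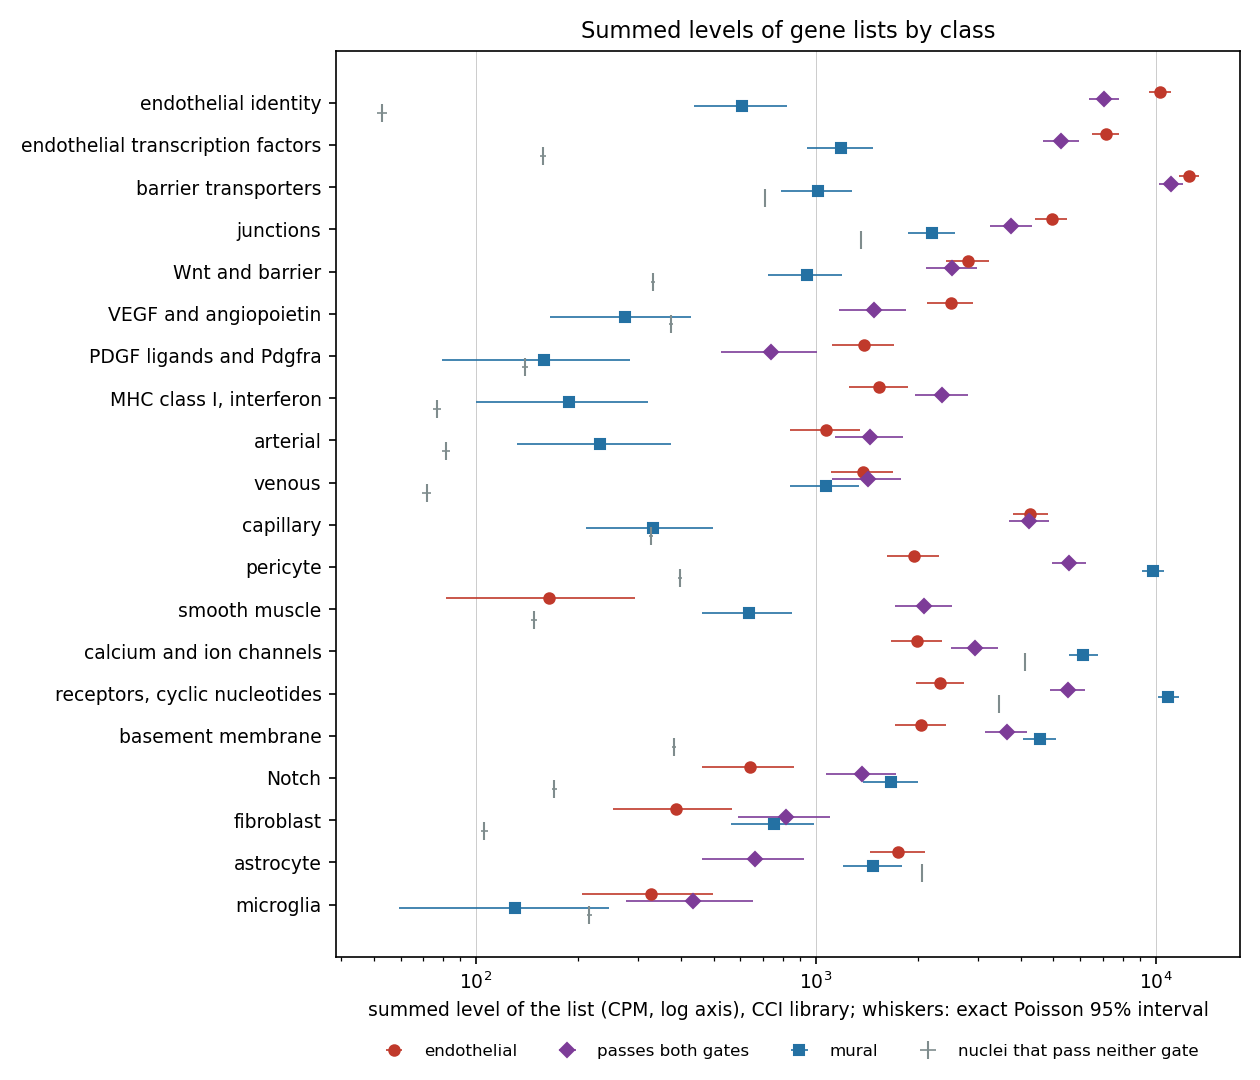
Summed CPM of gene lists, log axis, in endothelial, mural and both-gate nuclei and in the nuclei that pass neither gate, CCI library, with exact Poisson 95% intervals as whiskers. Barrier transporters sum to 12495 CPM in endothelial and 1011 in mural nuclei, and pericyte genes to 1938 and 9825.

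Genes of antigen presentation had more UMIs in endothelial nuclei. The list of 12 MHC class I and interferon genes summed to 1536 CPM in endothelial (103 UMIs), 188 in mural (13 UMIs) and 2350 in both-gate nuclei, and none of its genes reached 50 UMIs. H2-K1, a class I heavy chain, had 32 and 1 UMIs and B2m, its light chain, 16 and 3. Among glucocorticoid genes Zbtb16, a hormone-induced factor, had 71 and 25 UMIs (log2 1.55, 0.88 to 2.27). The receptors Nr3c1 and Nr3c2 had 19 and 17 and 25 and 25, and Fkbp5, a target, 13 and 12. Emcn, endomucin, known as an endothelial sialomucin, had 24 UMIs in endothelial and 20 in mural nuclei (log2 0.31, -0.61 to 1.24), against 1.13 CPM in the remaining nuclei. All 20 mural UMIs of Emcn lay in nuclei that passed no limit for fibroblast, microglial, perivascular macrophage or astrocyte genes.

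Endothelial nuclei were sorted by whether they held any UMI of the arterial and venous gene lists. Of the 42, 11 had UMIs of the arterial list alone, 8 of the venous list alone, 13 of both lists and 10 of neither. Venous UMIs were concentrated, with 59 of 92 in 4 nuclei. Of these 4, nuclei with 16 and 15 venous UMIs also held arterial UMIs and were not in the venous class, and those with 19 and 9 gave most of its 39 venous UMIs. Of 72 arterial UMIs, 17 lay in 2 nuclei, with 9 and 8. Both also held venous UMIs and were not in the arterial class, and they held 0 and 1 UMIs of the capillary list. The nucleus with 8 arterial UMIs also held 5 UMIs of fibroblast genes among its 1233. Of the 12 endothelial UMIs of Mgp, an arterial list gene, 9 lay in the 3 nuclei that passed the fibroblast limit. A nucleus could enter a class with 1 UMI, so the classes need not be vessel types. Il1r1, the interleukin 1 receptor on the venous list, had 20 UMIs in the 8 venous nuclei and 0 in the 11 arterial ones, and Vwf, von Willebrand factor, had 7 and 0. Tgfb2, on the arterial list, had 0 and 11. These 3 genes were used to sort the nuclei. Genes that were not include Cxcl12, a chemokine listed for capillaries, with 1 UMI in the venous and 15 in the arterial nuclei (85.7 CPM, 2.17 to 477, and 999 CPM, 559 to 1648), and Slc7a5, with 5 and 17 (428 CPM, 139 to 999.9, and 1132 CPM, 659 to 1812). The intervals of Slc7a5 overlap, as do those of the whole capillary list, at 4199 CPM (3107 to 5552) in the venous and 5993 CPM (4819 to 7367) in the arterial nuclei. Barrier transporters summed to 13112 CPM in the venous and 13318 in the arterial nuclei, so these sums lay within each other's intervals.

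The smooth muscle genes Acta2, Tagln, Myh11 and Myl9 were nearly missing from the mural class. The whole list of 18 smooth muscle genes summed to 636 CPM in mural nuclei of the CCI library. It summed to 164 CPM in endothelial and 148 CPM in the remaining nuclei. Acta2 and Tagln, which define contractile smooth muscle, had 0 UMIs in the 42 mural nuclei of the CCI library, which allows up to 43.3 CPM at 3 counts. Myh11 and Myl9 had 2 UMIs each, and no mural nucleus had more than 1 UMI of these 4 genes together. Carmn, an RNA of mural cells, had 18 and Mylk, the myosin light chain kinase, 14 UMIs. Among pericyte genes outside the gate, Slc6a20a stood at 1821 CPM and Notch3 at 939 CPM in these nuclei.

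The 18 nuclei that passed both gates carried genes of both types in higher total counts. Their median was 2808 UMIs, against 1483 and 1501 in the endothelial and mural nuclei, and 2.92% of their UMIs at the median were mitochondrial, against 0.440% and 0.210%. Against the mean of the 2 types, their summed level was 0.947 times as high for pericyte genes and 1.29 times for endothelial identity genes. It was 1.64 for barrier transporters, 2.75 for caveolar genes, 2.73 for MHC class I genes, 3.85 for immediate early genes and 5.21 for smooth muscle genes. It was 0.508 for neuronal gate genes and 0.412 for astrocyte genes. Smooth muscle UMIs were not spread over them: 2 nuclei held 77 of 110, with 47 and 30, and all 31 Acta2 UMIs. The same 2 nuclei held 13 and 7 of the 60 caveolar UMIs and 8 and 2 of the 24 immediate early UMIs. The immediate early ratio rested on these 24 UMIs beside 11 in endothelial and 5 in mural nuclei. Scrublet called 1 of the 18, and whether these barcodes hold 1 cell or a pair was not tested.

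**Figure D5:**
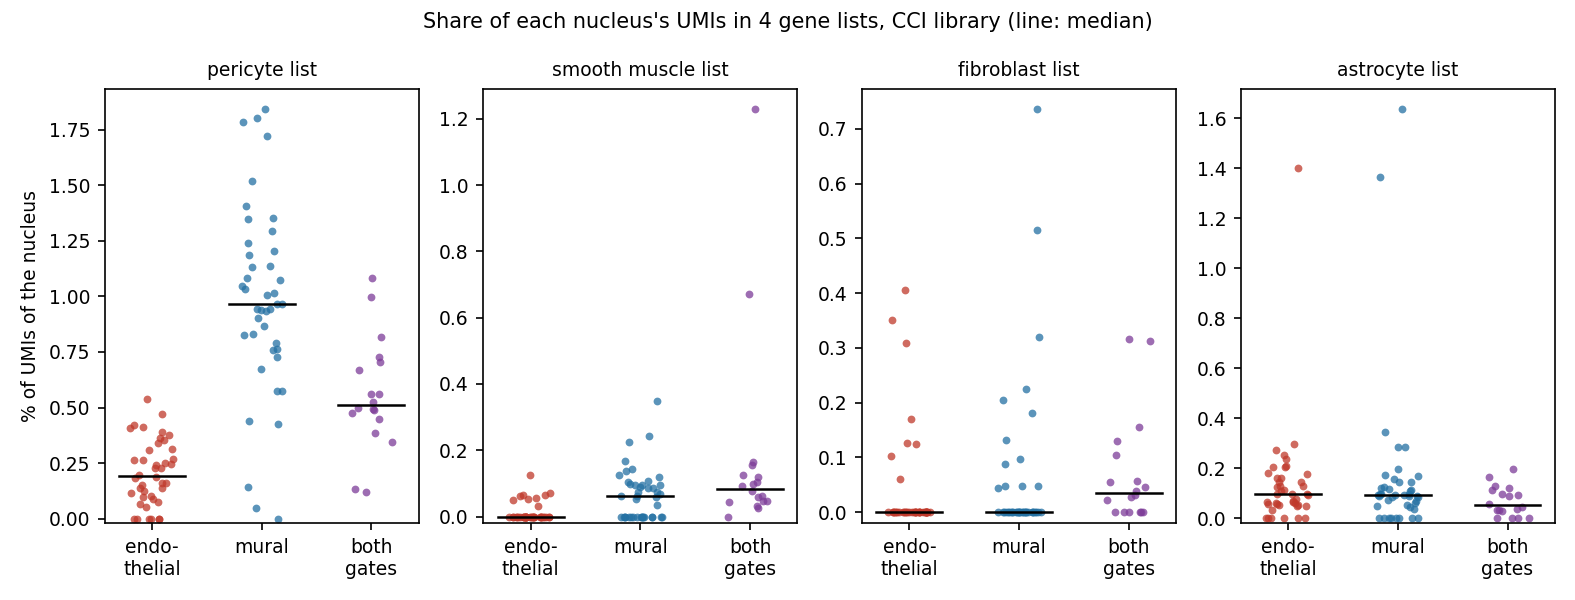
Share of each nucleus's UMIs in 4 gene lists, 1 point per nucleus of the CCI library with a line at the median, for endothelial, mural and both-gate nuclei. The lists are pericyte, smooth muscle, fibroblast and astrocyte genes. Pericyte genes take a larger share in most mural than in endothelial nuclei, and 2 both-gate nuclei stand above the rest in smooth muscle genes.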

How the data were processed

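UMI counts for each gene in each barcode were deposited by the authors as Cell Ranger matrices (7.1.0 per the file headers). Build mm10 and Seurat are named per the submitters' processing notes. The annotation release, the use of intronic reads and the strand setting are not given in the sources used here. Both libraries were used, each alone in its group.

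Nuclei were chosen by the marker gate given in the report. UMIs were summed over the nuclei of a type and given as CPM (counts per 1e6) with exact Poisson 95% intervals. Ratios have exact conditional intervals. Where a type had 0 UMIs, the bound used a floor of 3 counts over the type. Genes with at least 50 UMIs over both types were compared and called at 2-fold. The ratio step was tested on simulated counts. Ranking left out gate genes, sex-linked genes, those of mitochondrial DNA, ribosomal proteins and haemoglobins, gene models without a name, and genes lower than in the remaining nuclei. From each list, the 6 members with the most UMIs and any past 2-fold could be named. Members and lists were chosen with earlier results of these data known. Scrublet in Scanpy 1.11.5 scored doublets, which stayed in except in an alternative. Python 3.11.15, NumPy 2.4.6, pandas 2.3.3 and SciPy 1.17.1 were used. Of 32285 gene identifiers, 32235 were in GENCODE vM21. Alternatives were other gates, thinning, TMM scaling, other gene minimums, equal weight per nucleus and leaving out nuclei. Some genes that this rule would name are not reported here.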

Additional observations from a re-analysis of the deposited data

How the results depend on the processing

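Counts of UMIs per gene limit every ratio, and of the WT library only 8 genes reached 50 UMIs over both types. The 15 leading genes of each type kept their direction and at least 2-fold under each alternative that recomputed ratios. These were both other gates, thinning, TMM scaling, equal weights, and leaving out doublets or nuclei with other cell types' markers. The other gene minimums changed which genes were compared and left each ratio as it was, so they could not alter the leading genes' ratios. Ratios were not recomputed with both-gate nuclei counted in each type or with the filters on genes and mitochondrial UMIs. With a gate of 0.4% and 4 UMIs the WT shares were 0.00745% endothelial and 0.0372% mural. The CCI mural share was 0.546% with a gate of 0.1% and 0.418% after thinning, and both CCI shares were 0.437% with both-gate nuclei counted in each type. Genes at least 2-fold higher in endothelial nuclei numbered 36 of 206 after thinning, 270 of 1565 at a minimum of 20 UMIs and 1230 of 12500 at 1 UMI, since fewer or more genes were tested. Those higher in mural nuclei numbered 146 of 749 with the 0.1% gate, 243 at 20 UMIs and 968 at 1 UMI. A turned sign of the log2 ratio of endothelial over mural was sought only among leading and listed genes at least 2-fold apart in the main setting. It was found for 4 genes, and genes within 2-fold were not counted. After thinning Bmp6 was 0.64, Notch2 0.32 (4 and 5 UMIs) and Ptprz1 -1.36. With the 0.1% gate Ptprz1 was -1.52, and with the 0.4% gate Igf2 was 0.86. The cause was not tested. The filters, at least 200 genes and at most 20% mitochondrial UMIs, removed no nucleus, so they could not change a share. TMM scaling, equal weights and leaving out doublets or nuclei with other cell types' markers changed no share or count by more than its limit. No paired analysis was possible because each group is 1 library. Alternatives for CCI over WT within a type were not run, since that ratio was not computed.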
